A study of Saccharomyces cerevisiae with 24 samples.

Results

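The 10 histone genes of Saccharomyces cerevisiae followed here were chosen by name. They are HTA1 and HTA2 for H2A, HTB1 and HTB2 for H2B, HHT1 and HHT2 for H3, HHF1 and HHF2 for H4, HTZ1 for the variant H2A.Z, and HHO1 for the linker histone. All 10 were present in each of the 3 deposited tables, which listed 6672, 6666 and 6668 features, and all 10 passed the filter on low values in each table. The tables hold 24 libraries of poly(A)+ RNA from diploid yeast of the mother enrichment programme (MEP), in which a hormone-induced recombinase stops daughter cells from dividing so that mothers can be aged in bulk. Cells grew in YPD, were biotin-labelled and received β-estradiol, and mothers were purified after ageing. The log-phase cells came from the starting cultures.

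The mus81 table holds the MEP diploid mus81 mutant, which lacks a DNA structure-selective nuclease subunit, and an MEP diploid wild type, with 2 libraries per strain for log-phase cells and for mothers aged 24 h or 48 h. A second table holds MEP diploid cells titled HST3/4, called hst3 hst4 here, aged and in log phase (n = 2 each), and a wild type aged and in log phase (n = 1 each). Hst3 and Hst4 are the deacetylases of lysine 56 of histone H3. The titles of its aged libraries say 48 h and the age labels say 24 h, and the genotype label reads wild type throughout, so the titles were followed for genotype and the cells are called aged. HST3 had 2 to 10 reads in the 4 hst3 hst4 libraries and 278 and 319 in wild type, and HST4 had 0 to 1 against 87 and 90. The translocation table holds an MEP diploid a/a Tom70-GFP strain with the XII<>V translocation (XIIr<>V) and its MEP diploid a/a Tom70-GFP ADE2 control pGST-V-U, with 1 library per strain for log phase, 24 h and 48 h.

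The values were log2 values scaled by the submitters within each table, so levels were tested only within a table. Whole reads recovered from them numbered 1656535 to 11330955 per library, and the 10 genes had between 74 and 8375 reads per library. Tests used limma, and a gene was called at a Benjamini-Hochberg adjusted p under 0.05 over all features of its table. No label states that replicates are separate cultures, so a p-value here speaks of the spread among these libraries, possibly only technical. MUS81 had 0 to 10 reads in the mus81 libraries and 39 to 161 in wild type.

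Core histones pack DNA into nucleosomes, and in budding yeast each is made from a pair of genes that lie head to head with a gene for its partner: H2A opposite H2B and H3 opposite H4. Transcription of these divergent pairs is confined largely to the G1/S transition and S phase, driven by the activator Spt10 and by the cell-cycle factors SBF and MBF and repressed outside S phase by the HIR complex at all pairs but HTA2-HTB2. Unlike animal replication-dependent histone mRNAs, yeast histone mRNAs are polyadenylated, so poly(A) selection keeps them. H2A.Z replaces H2A near promoters through the SWR1 complex and is made through the cell cycle. Loss of core histone protein with replicative age, and longer life when histones are supplied, are known in this yeast.

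The 4 intergenic regions between the divergent pairs are the shared promoters of the 8 core genes, and their middle 300 bases are shown because they are the regions from which the 8 core genes described below are transcribed. All are from RefSeq build R64, plus strand, with the Spt10 motif in capitals.
HTB1-HTA1 (chrIV:914971-915270): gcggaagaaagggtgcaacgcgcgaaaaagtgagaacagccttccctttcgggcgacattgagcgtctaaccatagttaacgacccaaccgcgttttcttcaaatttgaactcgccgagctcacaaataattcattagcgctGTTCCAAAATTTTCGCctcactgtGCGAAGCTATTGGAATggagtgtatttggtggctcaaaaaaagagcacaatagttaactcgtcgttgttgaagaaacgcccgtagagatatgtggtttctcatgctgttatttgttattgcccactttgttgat
HTA2-HTB2 (chrII:235992-236291): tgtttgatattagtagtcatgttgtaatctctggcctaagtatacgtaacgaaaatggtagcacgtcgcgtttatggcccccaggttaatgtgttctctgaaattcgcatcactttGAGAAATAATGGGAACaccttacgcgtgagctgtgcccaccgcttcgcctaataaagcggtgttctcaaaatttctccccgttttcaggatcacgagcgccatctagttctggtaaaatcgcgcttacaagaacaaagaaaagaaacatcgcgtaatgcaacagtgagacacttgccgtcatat
HHF1-HHT1 (chrII:255858-256157): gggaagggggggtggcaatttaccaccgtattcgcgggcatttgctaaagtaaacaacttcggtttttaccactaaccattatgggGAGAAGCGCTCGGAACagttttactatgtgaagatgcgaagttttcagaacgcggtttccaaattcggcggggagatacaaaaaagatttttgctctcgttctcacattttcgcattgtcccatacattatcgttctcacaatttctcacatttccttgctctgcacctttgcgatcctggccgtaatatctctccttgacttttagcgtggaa
HHT2-HHF2 (chrXIV:576239-576538): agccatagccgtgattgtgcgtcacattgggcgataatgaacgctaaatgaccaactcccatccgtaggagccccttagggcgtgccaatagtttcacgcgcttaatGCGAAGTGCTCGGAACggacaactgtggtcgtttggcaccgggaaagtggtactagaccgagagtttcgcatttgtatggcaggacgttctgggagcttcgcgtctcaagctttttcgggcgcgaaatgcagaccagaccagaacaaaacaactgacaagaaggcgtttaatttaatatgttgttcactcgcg
The regions were 817, 699, 646 and 676 bases long in that order. Each window held the Spt10 motif, with 2 copies in HTB1-HTA1 and 1 in each of the others. Of 1115 windows of the same length at the middle of divergent gene pairs, these 4 among them, 10 held it (0.90%). Spt10 is a known activator of these pairs, so finding its motif in them is not an independent result. The MBF-type motif ACGCGT, searched on both strands, occurred in the HTA2-HTB2 window only, and in 43 of the 1115 windows (3.86%). The SBF-type motif CGCGAAA, also searched on both strands, occurred in HTB1-HTA1 and in HHT2-HHF2, and in 49 of the 1115 windows (4.39%). These matches describe letters in the windows and not binding.

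The copies differ little in their coding sequence, which bears on how reads can be assigned. HTA1 and HTA2 differ at 25 of 399 bases and at 2 of 132 residues. HTB1 and HTB2 differ at 48 of 396 bases and at 4 of 131 residues. HHT1 and HHT2 differ at 28 of 411 bases, HHF1 and HHF2 at 8 of 312, and both of these pairs encode identical proteins of 136 and 103 residues. Stretches of 50 bases found elsewhere in the genome made up 4.6% of the stretches in each H2A gene, 12.2% in each H3 gene, 21.3% in each H4 gene and 0.0% in HTB1, HTB2, HTZ1 and HHO1. Levels of the H3 and H4 copies are therefore less certain than those of the H2A and H2B copies, because the way shared reads were counted is not given in the sources used here. The last 60 coding bases of the H2A copies are shown, as an example of how closely a pair of copies agrees, with the 6 differing bases in capitals, each in the direction of its own gene.
HTA1 (chrIV:915869-915928, plus strand): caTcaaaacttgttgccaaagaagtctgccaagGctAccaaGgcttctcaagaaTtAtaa
HTA2 (chrII:235394-235453, minus strand): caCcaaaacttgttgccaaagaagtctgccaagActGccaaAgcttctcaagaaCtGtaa

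Per base of coding length, the H4 genes were the most abundant and HHO1 the least in log-phase wild type of the mus81 table. On a TPM-like scale (reads per base of coding length, as a share over features), HHF2 and HHF1 averaged 2445 and 2415, followed by HTB1 at 1881, HTA1 at 1646, HHT2 at 1482, HTA2 at 1348, HHT1 at 1229 and HTB2 at 987. HTZ1 averaged 180 and HHO1 122 on the same scale. The libraries of HHF2 (2335 to 2556) and HHF1 (2307 to 2523) overlapped, and so did HHT2 (1347 to 1617) with HTA1 (1612 to 1680) and with HTA2 (1329 to 1366). The other neighbours in this order were separated. The mus81 log-phase cells had HHF1 at 2437 and HHF2 at 2317 and otherwise the same order. At 48 h HTA2 averaged 354 in mus81 cells and 571 in wild type, below HHT1 at 476 and 624.

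With age, mRNA of all 8 core histone genes fell in both strains of the mus81 table. At 24 h against log phase, 9 of the 10 genes were called lower in mus81, where 25.7% of all features were, and 9 of 10 in wild type, where 24.2% were. The count in wild type at 24 h rests on the scaling, with 1 of 10 called lower after quantile normalisation (17.5% of features) and 4 on a scale of total reads (9.79%). At 48 h against log phase all 10 were called lower in each strain, against 29.5% of features in mus81 and 30.1% in wild type. Their median ratio of 48 h to log phase was 0.334 in mus81 and 0.390 in wild type, beside a median log2 difference over all features of 0.11 and 0.15. Fewer histone mRNA-producing cells in a sample and less histone mRNA per cell cannot be told apart in bulk RNA.

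HTA2, the second H2A gene, had the furthest change of the 10 genes at 48 h against log phase in both strains. HTA2 had log2 values of 11.65 and 11.64 in log phase, 10.30 and 10.38 at 24 h and 9.48 and 8.59 at 48 h in mus81, and 11.69 and 11.77, 10.92 and 11.05, and 9.75 and 10.05 at the same stages in wild type. No 48 h library reached any 24 h library of its strain, and no 24 h library any log-phase library. HTA2 fell at 48 h, with a difference of -2.61 in mus81 (standard error 0.20, adjusted p = 8.89e-08) and -1.82 in wild type (0.20, 1.72e-06), a ratio to log phase of 0.164 and 0.282.

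HTA1, the other H2A gene, fell less in value. Its log2 values were 11.84 and 12.03 in log phase, 11.02 and 11.15 at 24 h and 10.50 and 10.25 at 48 h in mus81, and 11.97 and 12.06, 11.37 and 11.42, and 10.648 and 10.999 in wild type. The groups of a strain did not overlap. Its difference at 48 h was -1.56 in mus81 (standard error 0.14, adjusted p = 2.18e-07) and -1.19 in wild type (0.14, 2.36e-06).

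The H2B genes are HTB1, the higher of the copies, and HTB2. HTB2 had 11.15 and 11.10, 9.84 and 9.69, and 9.17 and 9.89 in log-phase, 24 h and 48 h cells of mus81, and 11.36 and 11.16, 10.33 and 10.85, and 9.27 and 9.70 in wild type. In mus81 the second 48 h library lay above both 24 h libraries, while the second 24 h library of wild type, the shallowest of the table, lay well above its replicate. HTB2 differed by -1.60 (standard error 0.21) in mus81 and -1.77 (0.21) in wild type at 48 h, and HTB1 by -1.66 (0.16) and -1.53 (0.16).

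Among the H3 and H4 genes the H3 genes fell further in value at 48 h. HHT1 had 11.54 and 11.55, 10.34 and 10.44, and 9.93 and 9.11 in mus81, and 11.63 and 11.64, 10.46 and 11.07, and 10.02 and 10.13 in wild type, in the order log phase, 24 h and 48 h. Its differences at 48 h were -2.03 (standard error 0.21) in mus81 and -1.56 (0.21) in wild type, and those of HHT2 were -1.60 (0.14) and -1.43 (0.14). HHF1 differed by -1.20 (0.12) and -0.83 (0.12), the smallest core change of each strain, and HHF2 by -1.42 (0.14) and -1.18 (0.14).

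**Figure D1:**
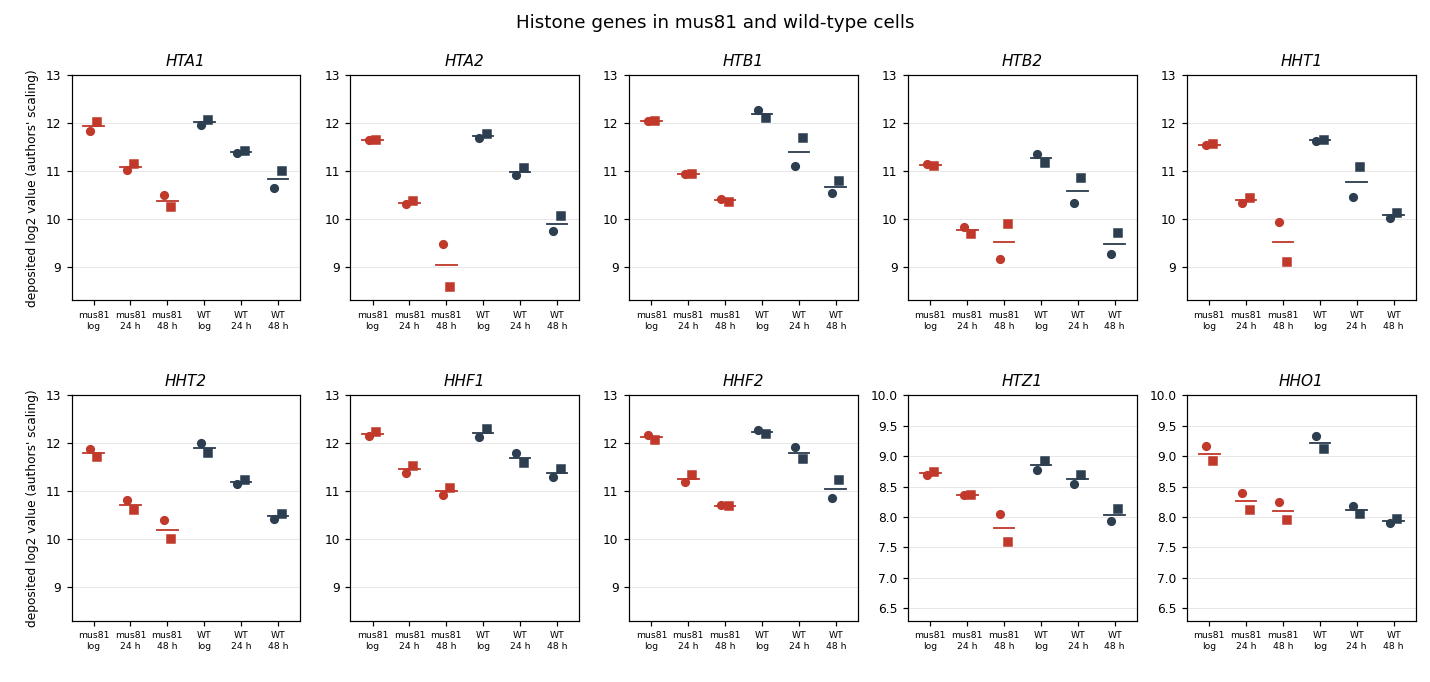
Deposited log2 value (y axis, submitters' scaling) of each histone gene in mus81 (red) and wild type (dark) by age (log phase, 24 h, 48 h). Circles are replicate 1, squares replicate 2 and bars the group mean, and HTZ1 and HHO1 have a lower axis range. Every core gene is lower at 48 h than in log phase in both strains, and mus81 48 h replicate 2 stands apart from its replicate for HTA2 (8.59 against 9.48), HHT1 (9.11 against 9.93) and HTB2 (9.89 against 9.17).

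The fall continued between 24 h and 48 h. Relative to log phase the median difference of the 10 genes was -0.97 at 24 h and -1.58 at 48 h in mus81, and -0.69 and -1.36 in wild type. Between 48 h and 24 h, 6 of the 10 genes were called lower in mus81, where 5.35% of features were, and 8 of 10 in wild type, where 12.7% were. These counts depended on single libraries: without one library at a time they were 0 to 5 in mus81 and 2 to 8 in wild type, with 0 without mus81 24 h replicate 2, 1 without mus81 48 h replicate 2, 2 without mus81 24 h replicate 1, and 2 and 4 without wild-type 48 h replicate 1 and 24 h replicate 2. Against log phase, leaving out 1 library at a time gave 9 in mus81 and 7 to 9 in wild type at 24 h, and 10 in both at 48 h.

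The variant and linker genes differed from the core in when they fell. In both strains HTZ1 had the smallest change of the 10 genes from log phase to 24 h, and HHO1 the smallest from 24 h to 48 h. In wild type HHO1 also had the furthest fall of the 10 at 24 h. HTZ1 had log2 values of 8.70 and 8.74 in log phase, 8.35 and 8.36 at 24 h and 8.05 and 7.60 at 48 h in mus81, and 8.77 and 8.92, 8.55 and 8.69, and 7.94 and 8.13 in wild type. It was the gene not called at 24 h in either strain, with -0.36 (standard error 0.15, adjusted p = 0.0598) in mus81 and -0.23 (0.15, 0.237) in wild type, and it fell at 48 h on this scale (-0.90 and -0.81). HHO1, whose protein binds linker DNA, had 9.16 and 8.92, 8.40 and 8.12, and 8.24 and 7.94 in mus81 and 9.32 and 9.12, 8.19 and 8.05, and 7.90 and 7.96 in wild type. HHO1 fell at 24 h, with -0.78 in mus81 (standard error 0.15) and -1.11 in wild type (0.15), and had 48 h values close to those at 24 h: the 48 h to 24 h difference was -0.16 (adjusted p = 0.615) and -0.18 (0.429).

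How far the genes fell depends on the scaling. Scaled by total reads (RPM) in place of the deposited values, the median of all features shifted to 0.83 in mus81 and 0.81 in wild type at 48 h, and the median of the 10 genes was -0.86 and -0.70, against -1.58 and -1.36 as deposited. On the RPM scale HTZ1 differed by -0.17 and -0.15 at 48 h and by 0.11 and 0.15 at 24 h in mus81 and wild type, beside medians over all features of 0.56 and 0.43 at 24 h, and neither age was called, and HHF1 in wild type differed by -0.17 at 48 h (adjusted p = 0.192) and was not called under quantile normalisation either. HHO1 was not called in mus81 at 48 h (-0.23, adjusted p = 0.206) but was in wild type (-0.63, 0.0021). HTA2, HTB1, HTB2, HHT1, HHT2, HTA1 and HHF2 were called lower at 48 h in both strains under the deposited, quantile and RPM scalings.

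**Figure D2:**
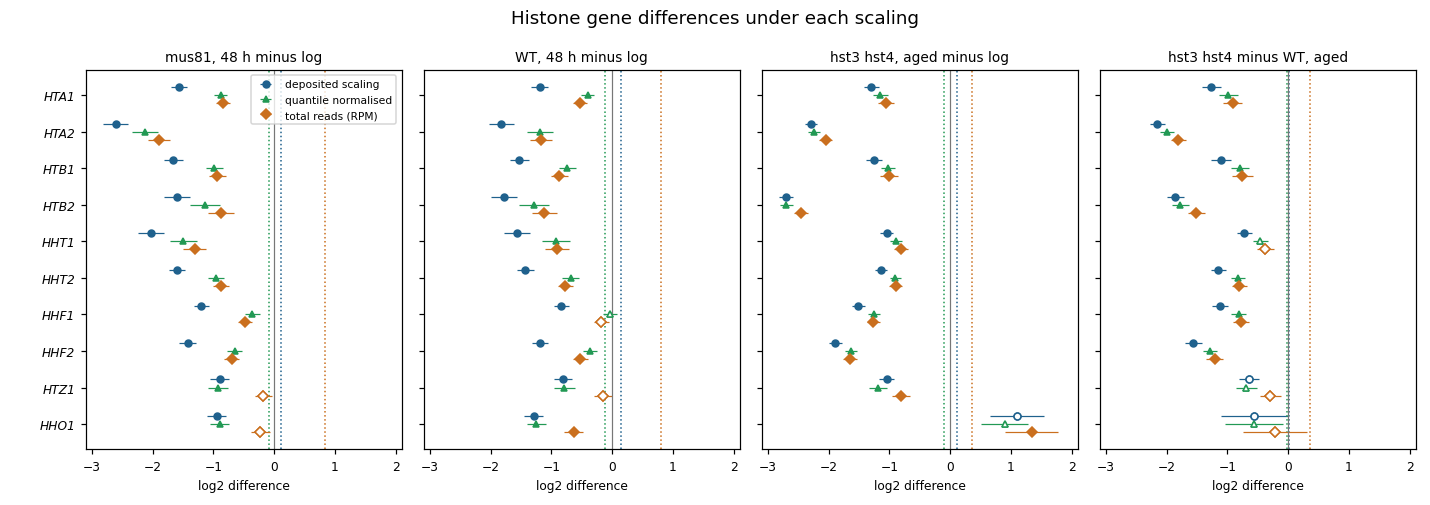
Log2 difference (x axis, with standard error) of each histone gene under 3 scalings in 4 comparisons: mus81 48 h minus log, wild type 48 h minus log, hst3 hst4 aged minus log, and aged hst3 hst4 minus aged wild type. Filled symbols are called and open ones not, and dotted lines are the median of all features under the scaling of the same colour. In the first pair of panels the quantile and RPM values of the core genes sit nearer to zero than the deposited ones, and the RPM median of all features moves to 0.83 and 0.81.

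As a share of all reads, the 8 core genes took 0.471% and 0.470% in log phase, 0.323% and 0.327% at 24 h and 0.258% and 0.251% at 48 h in mus81. In wild type they took 0.503% and 0.484%, 0.398% and 0.421%, and 0.295% and 0.323%. Each of these shares rests on at least 6972 core reads, and their order by age was without overlap in either strain. HTZ1 reads made up a growing part of all H2A-family reads (HTA1, HTA2 and HTZ1): 5.69% and 5.46%, 8.92% and 8.32%, and 10.9% and 10.8% in mus81, and 5.65% and 5.88%, 7.54% and 7.84%, and 9.06% and 8.27% in wild type. This share does not depend on the scaling.

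Between the strains no histone gene was called at any age. The comparisons of mus81 with wild type called 0 of 10 genes at each of the 3 ages (log phase, 24 h, 48 h), where 0.405%, 0.93% and 0.24% of all features were called in either direction. At an unadjusted p under 0.05 limma gave 0, 6 and 5 of the 10 genes at these ages, beside 4.23%, 15.4% and 6.84% of all features, and voom on the recovered reads called 0 at each. In log phase all 10 differences lay between -0.18 and -0.02. At 24 h 9 of 10 genes were lower in mus81 in value, the furthest being HTB2 at -0.83 (standard error 0.21, adjusted p = 0.0694), HTA2 at -0.65 (0.20, 0.137) and HHF2 at -0.54 (0.14, 0.0694). At 48 h HTA2 was furthest at -0.87 (0.20, adjusted p = 0.126) and HTB2 was at 0.04 (0.21, 0.989).

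The change with age was compared between the strains directly. The difference mus81 minus wild type in the change from log phase called 0 of 10 genes to 24 h (0.015% of features) and 0 of 10 to 48 h (0.12% of features). At an unadjusted p under 0.05 limma gave 2 and 1 of the 10, beside 5.7% and 4.98% of all features, and voom called 0 in each. Single libraries bore on these zeros: without wild-type 24 h replicate 1, HTB1 (-0.75, adjusted p = 0.00636) and HTB2 (-1.09, 0.0156) were called lower in mus81 at 24 h, in a fit that called 4.9% of all features lower against 0.225% with every library. Without mus81 48 h replicate 1, HTA2 was called at 48 h (-1.31, 0.000712) and in the change to 48 h (-1.23, 0.0332), where 0.255% and 0.12% of features were called lower.

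In hst3 hst4 cells all 8 core genes fell with age, and the fall was larger than in the wild type of their table by the test of the difference for HTB2, HTA2, HHF2 and HHF1. In aged against log-phase hst3 hst4 cells 9 of 10 genes were called lower, where 23.6% of features were. In the wild type with 1 library per age none of the 10 was called (3.63% of features in either direction), with 6 at an unadjusted p under 0.05 in limma (19.8% of features) and 0 called by voom, and all 10 differences were below zero, between -0.78 and -0.11. Tests with single wild-type libraries assume that these vary like the hst3 hst4 pairs, and the fit had 2 residual degrees of freedom. Per the labels the wild-type libraries and the first mutant libraries share a sequencing lane and the second mutant libraries another. The lane was also fitted as a block, which leaves 1 residual degree of freedom. The names of the wild-type libraries also carry a batch mark, and those of the mutant libraries carry none. Strain and this batch mark cannot be told apart, with or without the lane block.

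HTB2 moved most in the mutant. It had log2 values of 9.09 and 9.02 in aged and 11.65 and 11.84 in log-phase hst3 hst4 cells, and 10.91 in aged and 11.68 in log-phase wild type. The aged mutant libraries lay below every other library of the table. HTB2 fell by 2.70 in the mutant (standard error 0.11, adjusted p = 0.00114), a ratio of 0.154, and differed by -0.78 in wild type (0.16, 0.0786).

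HTA2, which faces HTB2, had 9.64 and 9.54 in aged and 11.88 and 11.89 in log-phase mutant cells, and 11.74 in aged and 12.12 in log-phase wild type. Its difference was -2.29 in the mutant (standard error 0.10, adjusted p = 0.00114) and -0.38 in wild type (0.14, 0.233). The other copies HTA1 and HTB1 fell less in value, with -1.30 (0.12) and -1.25 (0.13) in the mutant. The H4 genes HHF2 and HHF1 were at -1.89 (0.11) and -1.51 (0.10), the H3 genes HHT2 and HHT1 at -1.14 (0.10) and -1.05 (0.10), and HTZ1 at -1.05 (0.13, adjusted p = 0.00335).

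**Figure D3:**
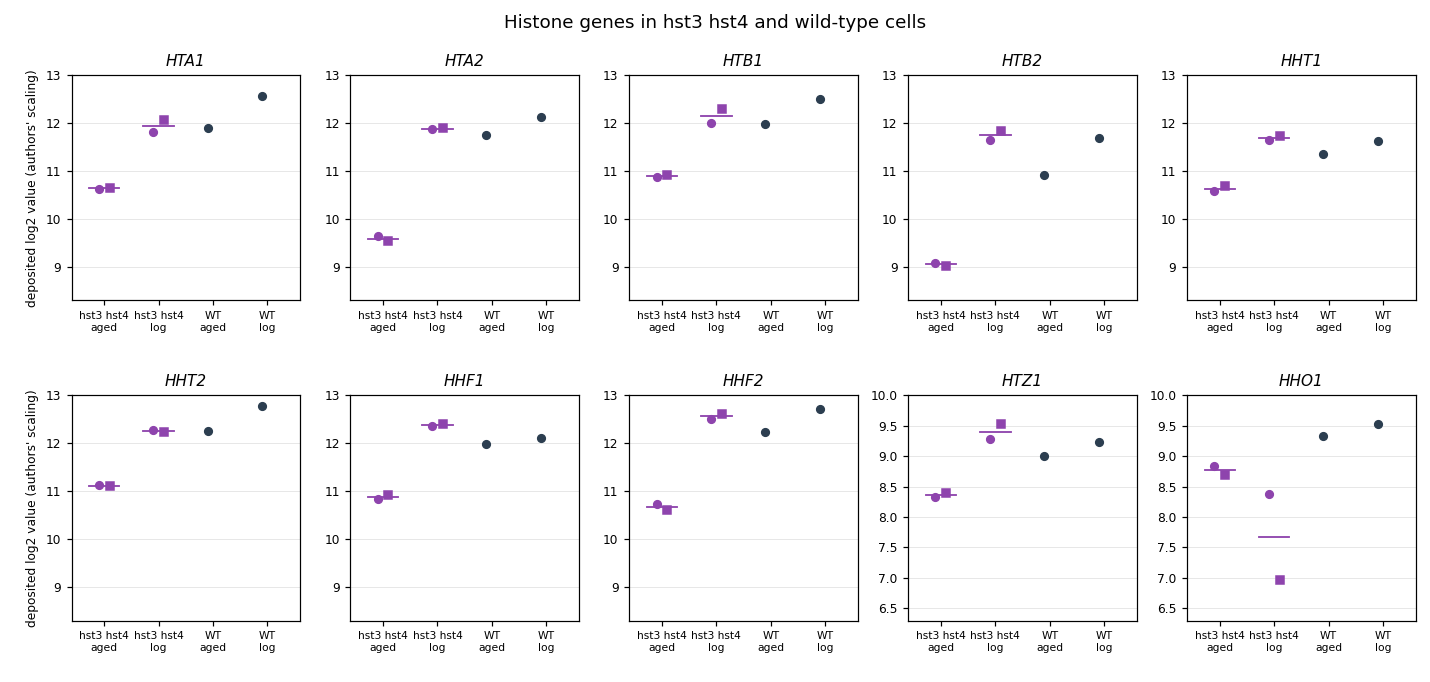
Deposited log2 value (y axis) of each histone gene in hst3 hst4 (purple) and wild type (dark) of the same table, aged and in log phase. Circles are replicate 1 and squares replicate 2, bars are means of 2 libraries, and each wild-type group is 1 library. The aged mutant libraries are the lowest of the table for all 8 core genes and HTZ1, whereas HHO1 is lowest in log-phase hst3 hst4 replicate 2 (6.97).

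Set against aged wild type, 8 of 10 genes were called lower in aged hst3 hst4 cells, where 8.48% of features were. HTA2 differed by -2.15 (standard error 0.12, adjusted p = 0.0107), HTB2 by -1.86 (0.14, 0.0128), HHF2 by -1.56 (0.13, 0.0128), HTA1 by -1.26 (0.15, 0.0157), HHT2 by -1.15 (0.12, 0.0147), HHF1 by -1.12 (0.13, 0.0156), HTB1 by -1.10 (0.16, 0.0182) and HHT1 by -0.72 (0.13, 0.0242). HTZ1 (-0.64, 0.0551) and HHO1 (-0.56, 0.525) were not called, and HHT1 was not called under quantile or RPM scaling. With aged mutant replicate 1 or 2 left out, which leaves 1 residual degree of freedom, 0 of 10 were called and 4 and 6 of all features were, against 1119 with both, while HTA2 was at -2.20 and -2.10 and HHT1 at -0.67 and -0.77. In log phase 2 of 10 were called lower in hst3 hst4, HTA1 (-0.62, standard error 0.15, adjusted p = 0.0495) and HHT2 (-0.53, 0.12, 0.0456), where 8.36% of features were. Neither was called under quantile, median-centred or RPM scaling, and with the lane as a block HTA1 (adjusted p = 0.0642) and HHT2 (0.151) were not called. Without log-phase mutant replicate 1 or 2, 6 of 10 genes were called in either direction, as were 59.3% and 50.7% of all features.

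The change with age itself differed between mutant and wild type for 4 of 10 genes, where 6.03% of features were called lower in this comparison. These were HTB2 (-1.92, standard error 0.20, adjusted p = 0.0338), HTA2 (-1.91, 0.17, 0.027), HHF2 (-1.40, 0.19, 0.0361) and HHF1 (-1.39, 0.18, 0.0361). Within the shared lane, with 1 library per group and no test, the same differences were -1.79, -1.86, -1.29 and -1.41. With age, the same genes changed by -0.78, -0.38, -0.49 and -0.11 in this wild type and by -2.70, -2.29, -1.89 and -1.51 in the mutant. At 48 h in the mus81 table they changed by -1.77, -1.82, -1.18 and -0.83 in wild type. In mus81 cells these changes were -1.60, -2.61, -1.42 and -1.20. The tables were not tested against each other. All 4 calls were lost with aged mutant replicate 1 or 2 left out, when 0 of all features were called, and without the variance trend.

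HHO1 was the exception in this table. It had 8.84 and 8.70 in aged and 8.37 and 6.97 in log-phase hst3 hst4 cells, and 9.33 in aged and 9.53 in log-phase wild type. The low value was of 74 reads in a library of 3964134, and its replicate had 304 of 6381459. The difference aged minus log phase was 1.10 in the mutant (standard error 0.45, adjusted p = 0.0928), and it was called higher on the RPM scale (1.34, 0.0452) and with the lane as a block (1.10, 0.27, adjusted p = 0.00699). Log-phase replicate 2 decided its size: the difference was 0.40 without that library and 1.80 without replicate 1. Against log-phase wild type HHO1 differed by -1.86 (0.55, adjusted p = 0.0728), and by -1.16 without replicate 2, and it was called lower with the lane as a block (-1.47, 0.35, 0.0245).

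The balance between histones also shifted in the mutant. Reads of the H3 genes over reads of the H4 genes gave log2 ratios of 0.104 and 0.136 in aged and -0.444 and -0.510 in log-phase hst3 hst4 cells, and -0.235 in aged and -0.124 in log-phase wild type. In the mus81 table the same ratio was -0.443 and -0.519 in log phase, -0.695 and -0.901 at 24 h and -0.645 and -1.26 at 48 h in mus81, and -0.368 and -0.525, -1.01 and -0.478, and -0.853 and -1.02 in wild type. The ratio was thus higher in aged than in log-phase mutant cells of one table and lower at 48 h than in log phase in both strains of the other. The core genes took 0.207% and 0.211% of reads in aged and 0.487% and 0.543% in log-phase hst3 hst4 cells, and 0.402% in aged and 0.507% in log-phase wild type.

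In the translocation table the fit took strain and age as additive terms. At 24 h against log phase 5 of 10 genes were called lower (11% of features), and at 48 h 8 of 10 (17.2% of features). Between 48 h and 24 h none was called (0% of features), with 3 of 10 at an unadjusted p under 0.05 in limma (11.3% of features) and 0 by voom. HTA2 again moved most at 48 h, by -2.05 (standard error 0.26, adjusted p = 0.000973), followed by HHT1 at -1.45 (0.25, 0.00334), HHF2 at -1.33 (0.24, 0.00387) and HTB2 at -1.30 (0.22, 0.00275). HTZ1 (-0.42, 0.224) and HHO1 (-0.93, 0.0972) were not called at 48 h, and HTZ1 was at 0.14 on the RPM scale.

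The translocation strain did not differ from its control in any called histone gene. None of 10 was called (0.015% of features in either direction), with 0 at an unadjusted p under 0.05 in limma (1.17% of features) and 0 by voom, and the 10 differences averaged over the ages lay between -0.07 and 0.06. HTA2 had 11.08, 10.32 and 9.48 in log-phase, 24 h and 48 h XIIr<>V cells, and 11.61, 10.25 and 9.11 in the control. HTA1 had 11.26, 11.35 and 10.80 in XIIr<>V cells and 11.93, 10.98 and 10.67 in the control. Every core gene was lower in the XIIr<>V than in the control log-phase library, and all but HHF1 were higher in the XIIr<>V than in the control 48 h library, with no replicate to test this.

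**Figure D4:**
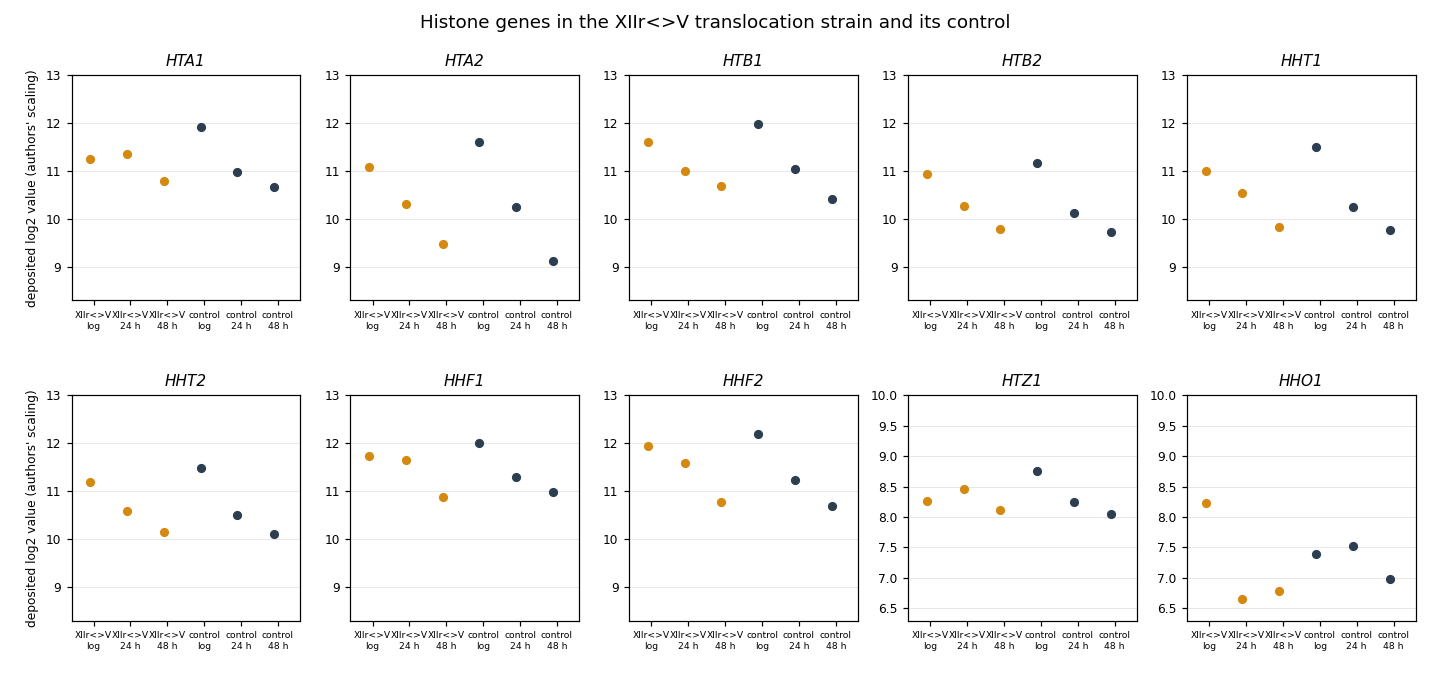
Deposited log2 value (y axis) of each histone gene in the XIIr<>V translocation strain (orange) and its control (dark) by age (log phase, 24 h, 48 h), with 1 library per point. All 8 core genes are lower at 48 h than in log phase in both strains, and HHO1 is at 8.24, 6.65 and 6.79 in XIIr<>V and 7.39, 7.52 and 6.98 in the control.

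The H2A copies lay further apart in value in old cells, without passing the test over the copy pairs. The difference HTA1 minus HTA2 within a library does not depend on scaling between libraries. In old cells of the mus81 table (24 h and 48 h together) it averaged 0.85 with a range of 0.37 to 1.65 (n = 8), and in log phase 0.29 with a range of 0.19 to 0.39 (n = 4). The ranges overlapped in 1 old library, and the shift of 0.56 had p = 0.0178 in a two-sided exact permutation test within strains and 0.0711 adjusted over the 4 pairs of copies, so it did not pass. It did not pass with any library left out. With an old library left out the adjusted p of the exact permutation test was between 0.0533 and 0.133. With a log-phase library left out, the 75 relabelings allow no p under 0.0133. This pair alone could then not pass after adjustment over the 4 pairs, and the shift was 0.515 to 0.614.

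Read as a share of H2A reads, HTA1 took 53.3% and 56.7% in log phase, 62.2% and 63.1% at 24 h and 66.9% and 75.9% at 48 h in mus81. In wild type it took 54.8% and 55.1%, 57.7% and 56.4%, and 65.1% and 65.8%. In the other tables, which the test did not use, HTA1 took 66.5% and 68.2% in aged and 48.8% and 52.9% in log-phase hst3 hst4 cells, 52.7% in aged and 57.5% in log-phase wild type, 53.1%, 67.1% and 71.3% in XIIr<>V cells and 55.5%, 62.3% and 74.6% in their control. The share was higher in the old than in the log-phase libraries of every strain except the wild type of the hst3 hst4 table. The 95% Wilson intervals of these shares were at most 4.82 percentage points wide and cover counting error only.

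In the mus81 table the other copies moved less in value, while HTB1 minus HTB2 moved further than HTA1 minus HTA2 in hst3 hst4 cells. HTB1 minus HTB2 averaged 1.00 in old and 0.92 in log-phase cells of the mus81 table (exact permutation p = 0.618, adjusted 0.618), while HTB1 took 77.5% and 78.8% of H2B reads in aged and 55.9% and 57.6% in log-phase hst3 hst4 cells. HHT1 minus HHT2 averaged -0.45 in old and -0.26 in log-phase cells (exact permutation p = 0.173, adjusted 0.267). HHF1 minus HHF2 averaged 0.18 in old and 0.03 in log-phase cells (exact permutation p = 0.2, adjusted 0.267). At 48 h alone it was 0.21 to 0.44, against -0.15 to 0.16 in log phase, without overlap. The exact permutation test gave p = 0.0556 there (adjusted 0.0741). This is the lowest two-sided p that 36 relabelings of 2 against 2 libraries per strain allow, so the test could not pass. In the other tables HHF1 minus HHF2 was also higher in aged or 48 h libraries. It was 0.10 and 0.30 against -0.16 and -0.20 in log-phase hst3 hst4 cells, and -0.24 against -0.61 in their wild type. It was 0.11 against -0.21 in XIIr<>V cells and 0.28 against -0.17 in the control.

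**Figure D5:**
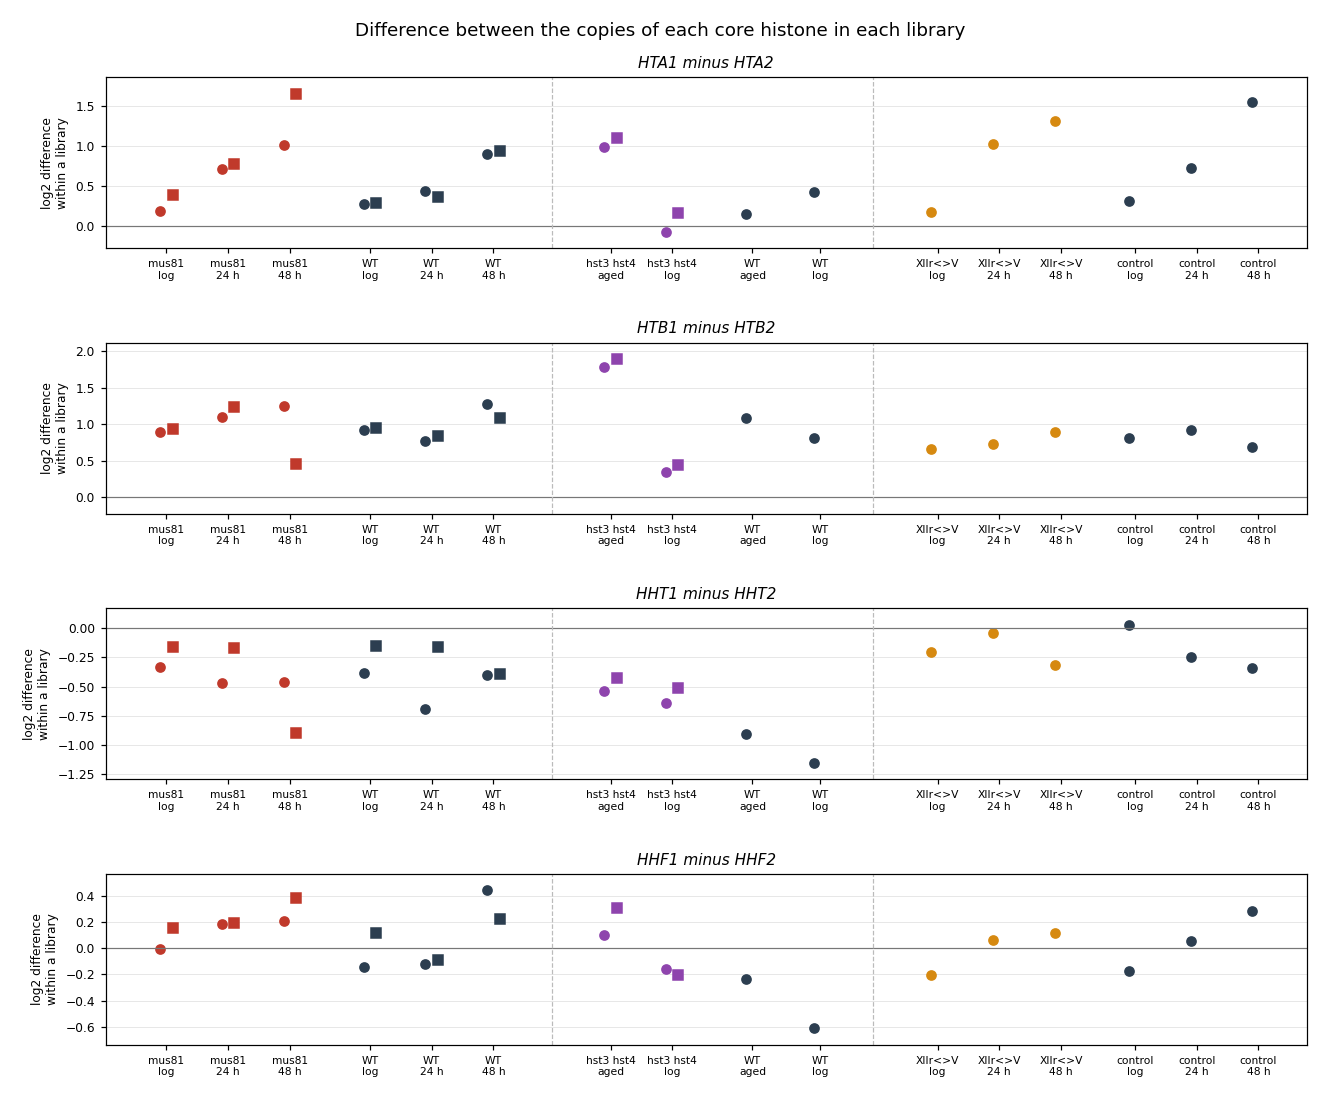
Log2 difference between the copies of each core histone within each library (y axis), for all 24 libraries by strain and age, with dashed lines between tables. Circles are replicate 1 and squares replicate 2. HTA1 minus HTA2 is at 0.19 to 0.39 in log phase and 0.90 to 1.65 at 48 h in the mus81 table, and HTB1 minus HTB2 is at 1.78 and 1.89 in aged against 0.34 and 0.44 in log-phase hst3 hst4 cells.

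The regulators of histone genes had a median below that of all features at 48 h in both strains of the mus81 table. Of 12 regulators (SPT10, SPT21, the HIR complex genes, ASF1, RTT106, YTA7, SWI4, SWI6 and MBP1), 5 were called lower and 2 higher in mus81 at 48 h against log phase (median -0.35), and 8 lower and 0 higher in wild type (median -0.43). HIR2, a subunit of the HIR repressor, was at -1.03 in mus81 (adjusted p = 8.93e-05) and -1.09 in wild type (4.66e-05), while ASF1, a chaperone for H3 and H4, rose by 0.74 in mus81 (0.000778). In aged hst3 hst4 cells 3 of the 12 were called higher and 2 lower, with SPT10 up by 1.07 (0.00538). Among all features, 29.5% in mus81, 30.1% in wild type and 23.6% in hst3 hst4 cells were called lower in these comparisons. The shares called higher were 30.7%, 33.1% and 28.6% in the same order. Neither regulator count in hst3 hst4 cells exceeded the share of all features called in its direction. Medians over all features were 0.11, 0.15 and 0.11 in these comparisons. Within a strain the RPM scale moves all genes up by the same amount at 48 h against log phase. On that scale 61% of features were called higher in mus81 and 58.4% in wild type. The regulator medians on it were 0.37 and 0.22, beside 0.83 and 0.81 over all features.

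Genes that handle histone proteins followed no single direction. Of 15 chaperone and assembly genes, 6 were called lower and 4 higher in mus81 and 8 lower and 0 higher in wild type at 48 h, with NHP6A, a DNA-bending partner of the FACT chaperone, at -1.50 and -1.11 and SPT6 at -1.08 and -0.89. Of 13 SWR1 complex genes, 4 and 5 were called lower and 2 and 2 higher, with the ATPases RVB2 at -1.32 and -1.33 and RVB1 at -1.03 and -1.23. Of 12 acetylation and deacetylation genes 5 and 3 were called lower and none higher, with SIR2 at -1.15 and -1.20 and HDA1 at -1.15 and -1.10. Of 5 tested genes for control of surplus histones 2 and 2 were called higher and 1 and 0 lower, with UBC5, a ubiquitin-conjugating enzyme gene, at 2.33 and 2.71 and PSH1, the ubiquitin ligase for the centromeric H3, at 1.01 and 0.46. Of all features 29.5% and 30.1% were called lower and 30.7% and 33.1% higher in these comparisons, and the SWR1 and acetylation counts called lower lie near that share.

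CSE4, the centromeric H3, was not called lower at 48 h, unlike the canonical H3 genes. It differed by 0.81 in mus81 (standard error 0.24, adjusted p = 0.00926) and by 0.44 in wild type (0.24, 0.123) at 48 h against log phase, and by 1.53 and 1.10 on the RPM scale. In hst3 hst4 cells it was at 0.04 (0.13, adjusted p = 0.819) with age and was higher than in wild type by 0.92 in log phase (0.16, 0.0265).

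Other S-phase genes and daughter-cell markers were called lower in part on the deposited scale. Of 20 S-phase and G1/S genes, 10 were called lower and 1 higher in mus81 at 48 h (median -0.40) and 12 lower and 1 higher in wild type (median -0.42). Of all features 29.5% and 30.1% were called lower and 30.7% and 33.1% higher in these comparisons. RNR1, the large ribonucleotide reductase subunit, was at -1.55 and -1.86, and POL30, the replication clamp PCNA, at -0.89 and -1.09. In hst3 hst4 cells 5 of the 20 were called lower and 4 higher with age (median 0.05). There 23.6% of all features were called lower, so the count called lower lies near that share. On the RPM scale the medians of this list at 48 h were 0.32 in mus81 and 0.23 in wild type, beside 0.83 and 0.81 over all features. Of 11 daughter-cell markers, 9 were called lower and 0 higher in each strain of the mus81 table at 48 h (medians -1.95 and -1.25). In aged against log-phase hst3 hst4 cells 6 were called lower and 2 higher. In log-phase hst3 hst4 cells 9 were called lower than in wild type, where 8.36% of features were. On the RPM scale 9 markers were called lower and 2 higher in mus81 and 7 lower and 1 higher in wild type at 48 h, where 11.3% and 13.4% of features were called lower. Their summed level was 2337 to 2790 RPM in log phase, 1348 to 1634 at 24 h and 1448 to 1548 at 48 h in mus81, and 2556 to 3403, 1939 to 2255 and 1890 to 2388 in wild type, with none of the 11 at 0 in any library. In the translocation table at 48 h, 4 of the 20 S-phase genes were called lower and 1 higher. Of the 11 markers 1 was called lower and 0 higher, where 17.2% of features were called lower. The summed marker level in log phase, 24 h and 48 h was 2189, 1877 and 2357 RPM in XIIr<>V cells. It was 2043, 2051 and 2685 RPM in the control. The part of the cell cycle and of daughter cells in the fall of the histone genes was not tested.

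The 8 genes whose pattern over the 12 libraries of the mus81 table was most like the mean log2 value of the 8 core histone genes were ADH1, RPL8A, ALA1, RHR2, ENO2, ATO3, RPL1A and YIL169C, out of 4991 candidates above the 25th percentile of level. Their Pearson correlations were 0.990 to 0.998. All 12 points share the age groups, the submitters' scaling and library depth, so these values describe likeness only. Among the 28 pairs of core histone genes the correlations over the same libraries were 0.860 to 0.986 (median 0.961), those of HTZ1 with the core genes 0.835 to 0.979, and those of HHO1 with the core genes 0.796 to 0.892.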

How the data were processed

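The 3 deposited tables held log2 values per feature, scaled by the authors by a method not given in the sources used here. The submitters' processing notes name Trim Galore 0.6.6, HISAT2 2.1.0 and genome build R64. Each library's lowest value matched 0 reads entered as 0.9, and 100.0% of low values then gave whole reads within 0.02, so reads were recovered for depth, shares and voom. Features above the floor in at least 2 libraries were fitted with limma 3.58.1 (lmFit, eBayes with trend, R 4.3.3): 6669, 6613 and 6651 features with 6, 2 and 2 residual degrees of freedom. The fits were also tested on data simulated from each table. Copy differences were tested by exact permutation within strains (225 relabelings). Intervals are at 95%. Promoters, coding sequences and coordinates came from RefSeq R64, which gave all 10 genes the coordinates of the files.

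The members, lists and tests were chosen with earlier results of these data known. Named genes were the 10 histone genes, the 8 most alike genes, up to 4 members of each list with the largest changes, CSE4 and the deleted genes. Replicate numbers of the titles did not pair the samples of the mus81 table, while in the hst3 hst4 table they follow the sequencing lane, so the replicate block is a lane block there. Alternatives were other scalings (RPM was added after seeing the data), filters, variance settings, voom, a replicate block and leaving out libraries.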

Additional observations from a re-analysis of the deposited data

Results flagged for a closer look

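The change from log phase to aged cells differed between hst3 hst4 and wild type for 4 histone genes by limma's test of the difference itself. The difference was -1.92 for HTB2 (adjusted p = 0.0338), -1.91 for HTA2 (0.027), -1.40 for HHF2 (0.0361) and -1.39 for HHF1 (0.0361). The wild type had 1 library per age, and 0 of these calls remained with aged mutant replicate 1 or 2 left out or without the variance trend.

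For XIIr<>V and its control, 3 genes moved in opposite directions in the single libraries of each strain between 24 h and log phase, and the difference was not tested. HTA1 changed by 0.09 in XIIr<>V and by -0.95 in the control, a difference of 1.04. HTZ1 changed by 0.20 and -0.52, a difference of 0.72. HHO1 changed by -1.59 and 0.13, a difference of -1.72.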

How the results depend on the processing

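Counts of called histone genes moved by more than 1.5 times under these alternatives. Quantile normalisation left 1 (wild type 24 h against log), 5 (wild type 48 h against 24 h), 2 (mus81 48 h against 24 h), 0 (hst3 hst4 against wild type in log phase) and 0 (translocation table at 24 h). Of all features it called 2249, 1235, 217, 1076 and 1168 in either direction, against 3241, 1452, 423, 1130 and 2135 as deposited. Scaling by total reads (RPM), chosen after seeing the data, left 4, 5, 2, 1 (HHF1, higher) and 0 in the same comparisons. It called 3361, 2054, 572, 1746 and 2305 of all features in either direction. Without the variance trend 0 were called in mus81 48 h against 24 h, in hst3 hst4 against wild type in log phase, in the hst3 hst4 difference in change and in the translocation table at 24 h. All features called in these comparisons then numbered 0, 383, 0 and 1700, against 423, 1130, 683 and 2135 with the trend. In log-phase hst3 hst4 against wild type, median centring and leaving out features under the 25th percentile each called 1. The cause was not tested. HHF2 in wild type at 24 h reversed to 0.0716 under quantile normalisation.

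The replicate block called 1 gene, HTB2, in mus81 against wild type at 24 h. In the hst3 hst4 table, where it is the lane, it called 1 in log phase against wild type (HHO1) and added HHO1, higher, in aged against log-phase mutant cells. It moved no other count by that much. Same-numbered libraries of the mus81 table correlated between -0.136 and 0.563 over their deviations, the highest between log-phase mus81 and log-phase wild type. The main fit did not take these numbers as pairs.

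Leaving out 1 library gave 9 to 10 (hst3 hst4 aged against log), 0 to 0 (hst3 hst4 against wild type, aged), 0 to 10 (difference in change), 6 to 6 (log phase), 0 to 5 (mus81 48 h against 24 h), 2 to 8 (wild type 48 h against 24 h), 0 to 2 and 0 to 1 (mus81 against wild type at 24 h and 48 h) and 0 to 1 (change to 48 h). In the hst3 hst4 table these fits had 1 residual degree of freedom and the counts followed the whole table: for the difference in change 58% and 51.3% of all features were called without log-phase mutant replicate 1 and 2, and 0% with aged mutant replicate 1 or 2 left out.

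Of 2470 values of single genes under an alternative, 2235 stayed the same, 141 lost the call, 50 gained one, 43 moved without a call and 1 reversed. Staying the same meant keeping direction and side of the threshold, except for the untested values within the shared lane of the hst3 hst4 table. Those were judged by whether they lay within the residual standard deviation of the main value, and make up 44 of the 2235 and 6 of the 43.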
